A study of Mus musculus with 12 samples.

Results

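The serpins are a family of protease inhibitors, and 62 mouse genes of the family are described here, chosen among the 52550 genes of the count table by their symbols (Serpin followed by a clade letter and a number, plus Serping1 and Serpinh1). A further 5 genes named as pseudogenes were left out. Serpina3h and Serpinb10 carry no such name and were kept, although they are annotated as a transcribed and a polymorphic pseudogene. Clade a, the mostly secreted and often liver-made serpins, held 25 of the genes, clade b, the mostly intracellular serpins, held 27, and the other clades held 10. The genes lie on 10 chromosomes, with 24 on chromosome 12, 15 on chromosome 13 and 14 on chromosome 1. At least 10 counts in 1 library were found for 34 genes, and 28 did not reach this anywhere and are treated as not read, among them 9 with no count in any library. A filter on low counts left 26 of the 62 among 17700 tested genes. Of these, 16 averaged at least 10 CPM (counts per 1000000 counts assigned to genes, scaled by a TMM factor) in at least 1 group and are described library by library. The other 10 are given by their ranges and calls. A gene that passed the filter only through the group in which it is high had to differ between groups, so counts over the tested serpins, and the calls of genes with almost no counts in the other groups, are descriptions.

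A serpin presents a flexible reactive loop as bait. When a target protease cuts the loop, the serpin snaps into a more stable fold and traps the protease in a covalent complex, so each molecule inhibits once. Some members have lost this activity: Serpinh1 is a collagen chaperone of the endoplasmic reticulum, and Serpinf1 is a secreted factor best known for inhibiting blood vessel growth. In tissues with injured or remodelled matrix, the family is known for its control of plasminogen activation, clotting, complement and leukocyte proteases.

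RNA was sequenced from 12 libraries of wild-type (WT) mice, in 4 groups of 3 biologically independent replicates. The M scaffold group held primary cells of the intestinal muscle layers kept for 28 days on an electrospun gelatin scaffold in M medium, a serum-free differentiation medium with N2 and B27 supplements, the BMP antagonist Noggin (100 ng/ml), the Wnt agonist R-spondin1 (1 µg/ml) and the ROCK inhibitor Y27632 (10 µM). The M plate group held such cells in the same medium on a well plate, and the P plate group held them on a well plate in P medium, a proliferation medium with 10% FBS. Strips of intestinal muscle, the positive control, were native tissue, although day 28 and the cell source of the cultures stand in their labels as well. The medium comparison also changes serum, growth factors and the kinase inhibitor together, so these cannot be told apart.

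Counts assigned to genes ranged from 21396485 to 116643512 per library, and a count of 0 allowed up to 3 counts, or 0.027 to 0.125 CPM. Smooth muscle markers (8 genes, all read in each group) summed to 3470 to 10700 CPM in M scaffold, 2920 to 5230 CPM in M plate, 5260 to 11000 CPM in P plate and 34000 to 35500 CPM in strips. Fibroblast markers (8 genes) summed to 23800 to 33200, 19800 to 23100, 11800 to 16600 and 5980 to 7280 CPM in these groups. Endothelial markers (8 genes) came to 235 to 1620 CPM in M scaffold, 1780 to 2170 CPM in M plate, 17.4 to 42.7 CPM in P plate and 121 to 219 CPM in strips. P plate replicate 1 stood apart from its group, with 21400 CPM of summed macrophage markers against 4070 and 2250 CPM in replicates 2 and 3, and with 391 CPM of mesothelial markers against 3650 and 2920 CPM. M scaffold replicate 3 stood apart in its endothelial markers, at 235 CPM against 1620 and 1070 CPM. In these bulk samples, fewer cells of a type and less RNA per cell cannot be told apart.

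Among the members that differed most between groups were neighbours in the Serpina3 cluster on chromosome 12. The upstream sequences of 3 of them are printed here because these are the genes of the cluster that averaged at least 10 CPM in a group. Each is the 250 bases before the RefSeq start on GRCm38.p6, plus strand, with every match to a STAT site (TTCNNNGAA) or an NF-kB site (GGG, NNTTN, CC in a row) in capitals.
Serpina3g: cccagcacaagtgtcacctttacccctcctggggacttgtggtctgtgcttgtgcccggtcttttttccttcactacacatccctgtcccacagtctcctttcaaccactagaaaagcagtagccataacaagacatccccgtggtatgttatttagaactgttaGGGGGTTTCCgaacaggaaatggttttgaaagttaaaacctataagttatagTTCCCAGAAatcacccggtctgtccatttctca
Serpina3i: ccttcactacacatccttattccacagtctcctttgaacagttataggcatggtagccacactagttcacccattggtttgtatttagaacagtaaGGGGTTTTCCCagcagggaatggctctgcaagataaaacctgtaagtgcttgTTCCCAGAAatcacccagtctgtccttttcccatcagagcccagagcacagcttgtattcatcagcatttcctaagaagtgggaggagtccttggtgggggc
Serpina3n: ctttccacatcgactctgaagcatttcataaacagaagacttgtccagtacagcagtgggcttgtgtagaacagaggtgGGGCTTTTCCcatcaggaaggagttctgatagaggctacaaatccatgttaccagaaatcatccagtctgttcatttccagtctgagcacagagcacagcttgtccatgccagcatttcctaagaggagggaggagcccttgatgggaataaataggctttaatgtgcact
They lie at chr12:104235897-104236146, chr12:104262872-104263121 and chr12:104406458-104406707 in the order shown. The STAT letters stood at -33 in Serpina3g and at -102 in Serpina3i, counted from the RefSeq start to the first base of the match, and were not found in the Serpina3n window. The NF-kB letters stood at -85 in Serpina3g, in 2 overlapping matches at -154 and -153 in Serpina3i, and at -171 in Serpina3n. Both strands were searched, and the STAT and NF-kB letters occurred in 7.02% and 4.11% of 32851 RefSeq promoters of the same length. The Serpina3g and Serpina3i windows were identical at 144 of 179 aligned bases (80.4%), while identity was 59.5% between Serpina3g and Serpina3n and 77.9% between Serpina3i and Serpina3n. A match is a description of letters, not a site of binding. The other motifs searched, TATAAA (12.4% of promoters), TGANTCA (6.75%), TTNNGCAA (9.56%), GAANNTTC (6.69%) and ACGTG (16.6%), were not found in these windows. Among the lower members of the cluster, Serpina3f had STAT letters in both of its RefSeq windows and NF-kB letters in 1 of them, and Serpina3c had neither. RefSeq promoters were matched to 21 of the 26 tested serpins, and not to Serpina3h, Serpina3m, Serpina9, Serpinb1a or Serping1.

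**Figure D1:**
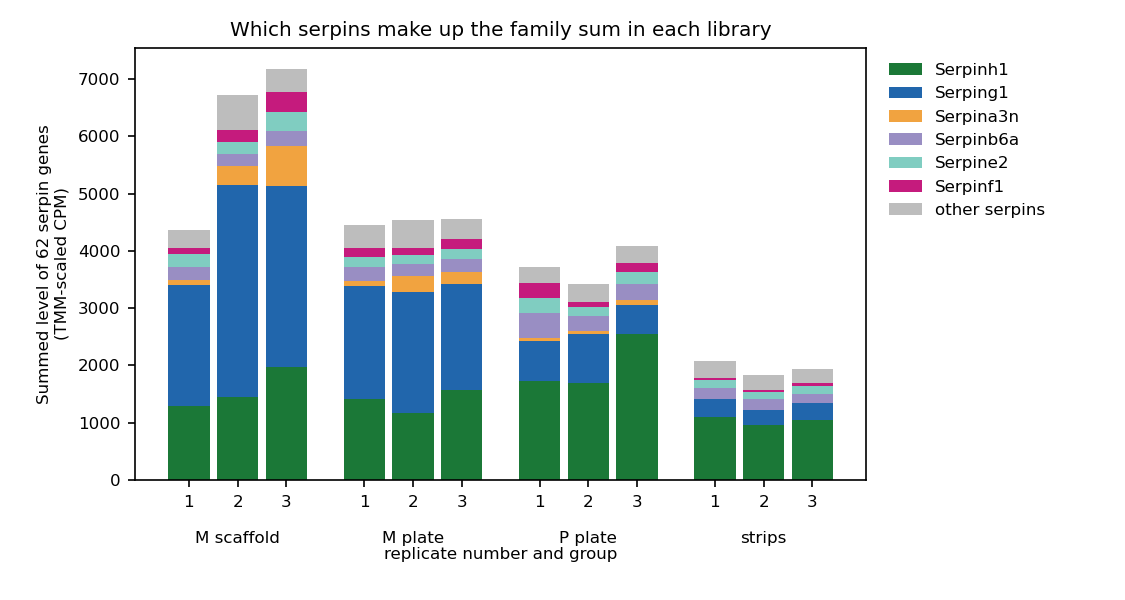
Stacked bars give the summed level of the 62 serpin genes (TMM-scaled CPM, linear axis from 0) in each of the 12 libraries, split by gene, with replicate numbers under the bars. Serping1 takes the largest piece in M scaffold and M plate, Serpinh1 takes the largest in P plate and strips, and the strips have the lowest bars.

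A few of the 62 genes carried most of their summed RNA, and which ones differed by group. The levels summed to 6087 ± 1510 CPM in M scaffold, 4515 ± 53.2 CPM in M plate, 3739 ± 335 CPM in P plate and 1949 ± 120.0 CPM in strips (SD, n = 3 each). Serping1, the inhibitor of the complement proteases C1r and C1s, made up 43.9% to 55.1% of this sum in M scaffold and 40.6% to 46.5% in M plate. Its share was 12.3% to 24.7% in P plate and 14.7% to 15.2% in strips. Serpinh1 made up 21.6% to 29.5% of the sum in M scaffold, 25.9% to 34.5% in M plate, 46.6% to 62.5% in P plate and 51.9% to 54.4% in strips. Because longer transcripts collect more reads, levels were also divided by the length of each gene's exons. On this scale of mean CPM per kilobase, and among the serpins described, Serping1 came first in M scaffold (1286) and M plate (850.9), ahead of Serpinh1 (643.2 and 567.2) and Serpina3n (182.3 and 91.54). In P plate the order was Serpinh1 (816.3), Serping1 (293.9) and Serpinf1 (72.2), and in strips it was Serpinh1 (424.5), Serping1 (124.4) and Serpinb6a (32.66). In each group the libraries' ranges of the highest gene and the next did not overlap on this scale. The third place was less firm, since its range overlapped that of the fourth gene in each group. In M scaffold, Serpina3n ranged from 43.94 to 344 CPM per kilobase and Serpinf1 from 43.78 to 147.1, and in P plate Serpinf1 ranged from 37.1 to 112.8 CPM per kilobase and Serpinb6b from 41.06 to 76.89.

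**Figure D2:**
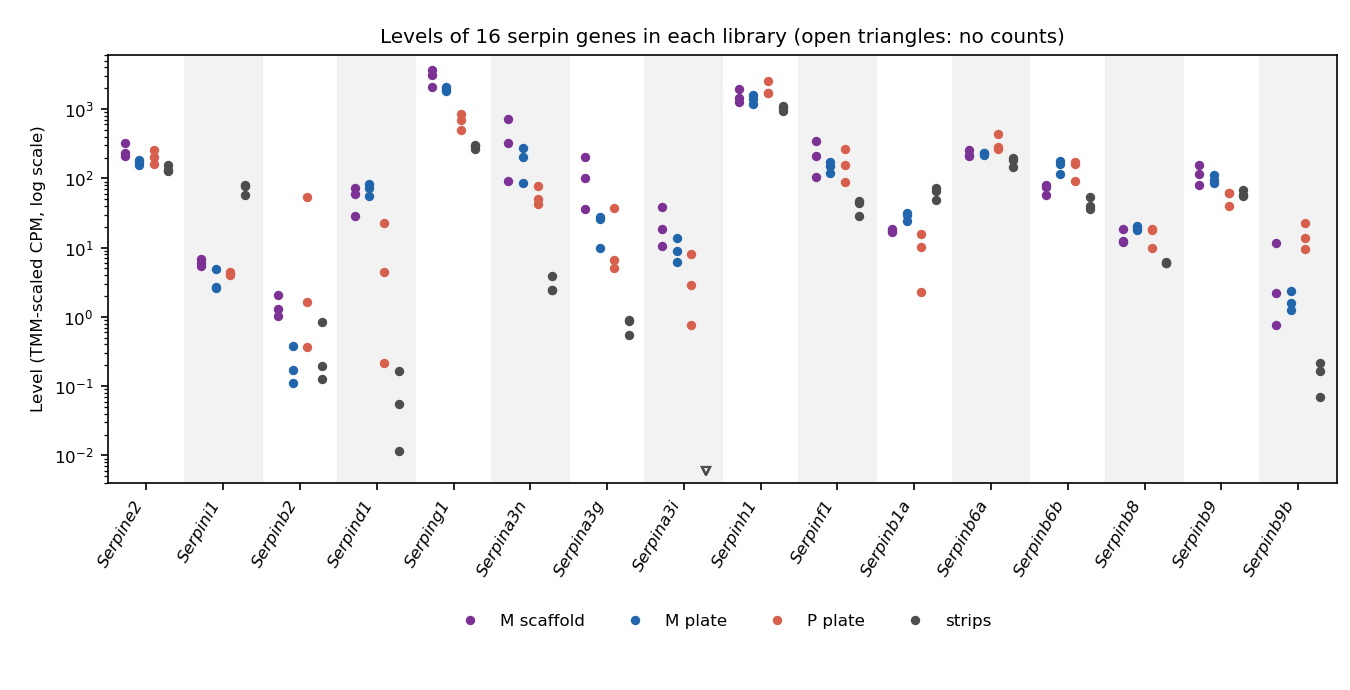
Points give the level of each of 16 serpins in every library (TMM-scaled CPM, log axis), by group, with 3 points a group and an open triangle where all counts were 0. The strips lie below every culture for Serpind1, Serpina3n, Serpina3g, Serpina3i and Serpinb9b, and above every culture for Serpini1 and Serpinb1a.

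Serpins that act on plasminogen activators and clotting proteases differed in which group held most of them. Serpine2 (protease nexin 1), which inhibits thrombin and plasminogen activators at cell surfaces, was read in every library. Its levels were 232.6, 207.0 and 326.9 CPM in M scaffold, 183.7, 156.1 and 172.8 CPM in M plate, 260.2, 162.9 and 206.6 in P plate and 132.5, 129.5 and 154.4 CPM in strips. M scaffold lay above strips without overlap (log2 fold change 0.88 ± 0.20, adjusted p = 0.00421). P plate was also called higher than strips (0.60 ± 0.20, adjusted p = 0.0227), a call that was lost without P plate replicate 1 (0.37, adjusted p = 0.108), P plate replicate 3, strips replicate 1 or strips replicate 2. M plate over strips was 0.30 ± 0.20 with an adjusted p of 0.223. The gene was not called between M scaffold and M plate (0.58 ± 0.20, adjusted p = 0.129) or between M plate and P plate (-0.30 ± 0.20, adjusted p = 0.305).

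Serpind1 (heparin cofactor II, ENSMUSG00000022766, chromosome 16, 17331371 to 17343575, plus strand), a thrombin inhibitor of plasma that is usually made in liver, was read mainly in M medium. It had 72.91, 60.24 and 28.83 CPM in M scaffold, 72.75, 83.45 and 55.56 CPM in M plate, 0.2189, 23.04 and 4.43 in P plate, and 0.05471, 0.1666 and 0.01159 CPM in strips. Every M medium library was above every P plate library, and every culture was above the strips, with P plate replicate 1 close to them. Against strips, the log2 fold change was 9.97 ± 1.62 in M scaffold (adjusted p = 0.000662), 10.36 ± 1.63 in M plate (0.000443) and 7.42 ± 1.58 in P plate (0.00208). These values rest on few counts in strips: without strips replicate 2 they were 10.91, 11.29 and 8.36, and without strips replicate 3 they were 9.01, 9.38 and 6.46. The P plate value was 8.01 without P plate replicate 1 and 5.42 without P plate replicate 2. M plate over P plate was 2.94 ± 1.03 with an adjusted p of 0.0603. It was called in that comparison when P plate replicate 1 was left out (2.36, adjusted p = 0.0218) or when P plate replicate 2 was left out (adjusted p = 0.00636). Mesothelial markers (6 genes, all read in each group) summed to 1450, 1640 and 1030 CPM in M scaffold, 2380, 2310 and 1960 CPM in M plate, 391, 3650 and 2920 in P plate and 3060, 3060 and 2610 CPM in strips. Within P plate, replicate 1 was lowest in both the gene and the markers, whereas the strips had high markers and almost none of the gene. Endothelial markers summed to 1620, 1070 and 235 CPM in M scaffold and 1990, 2170 and 1780 CPM in M plate. They came to 17.4, 42.7 and 28.0 CPM in P plate and 138, 121 and 219 CPM in strips. Within each culture group they ranked the libraries as Serpind1 did, but strips had more of them than P plate and less Serpind1. The part of mesothelial or endothelial cells in the result was not tested.

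Serpinb2 (PAI-2), a clade b inhibitor of urokinase known from macrophages, rested on 1 library in its comparisons with P plate. It had 1.044, 2.08 and 1.316 CPM in M scaffold, 0.1718, 0.3805 and 0.11 CPM in M plate, 53.65, 0.3687 and 1.657 in P plate and 0.8481, 0.125 and 0.197 CPM in strips. P plate replicate 1 was far above every other library, and this was also the library with the highest macrophage markers (10 genes, 21400 CPM). Elsewhere the orders differed. P plate replicate 2 had more of the markers than replicate 3 (4070 against 2250 CPM) but less Serpinb2. M plate had 4050 to 4730 CPM of them against 1800 to 4050 CPM in M scaffold, and also less Serpinb2. The part of macrophages in the result was not tested. M plate was called lower than P plate (log2 fold change -6.42 ± 1.68, adjusted p = 0.0195) although the groups overlapped, and without P plate replicate 1 the value was -2.22 with an adjusted p of 0.0772. It was -7.01 without P plate replicate 2 and -7.07 without M plate replicate 2. The call was also lost without any 1 of the M plate libraries (adjusted p = 0.0571 to 0.0764). Likewise P plate was called higher than strips at 5.57 ± 1.60 (adjusted p = 0.0109), against 1.34 without P plate replicate 1 (adjusted p = 0.18) and 6.71 without strips replicate 1. M scaffold lay above M plate without overlap, at 2.77 ± 1.55 in the fit of all 12 libraries (adjusted p = 0.336). With the replicate number as a block within these groups it was 2.86 and was called (adjusted p = 0.023). Serpinb2 and Serpinb10 overlap on the same strand, and 10.4% of the 50-base words of Serpinb2 are shared with Serpinb10.

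**Figure D3:**
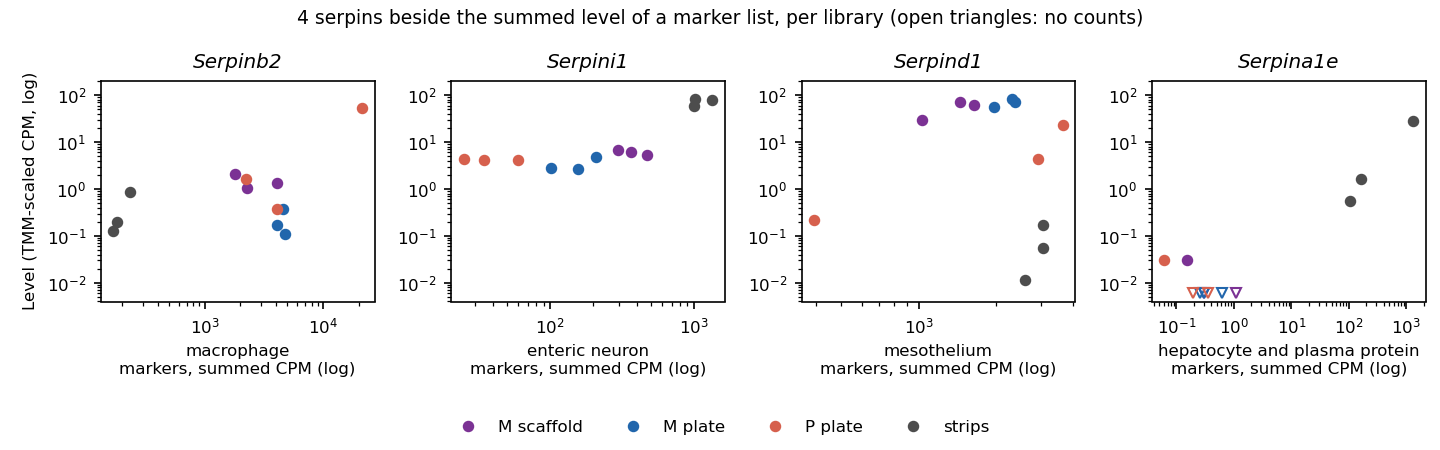
Each panel plots a serpin (vertical axis, TMM-scaled CPM, log scale) against the summed level of 1 marker list (horizontal axis, CPM, log scale), with 1 point per library and open triangles for no counts. Serpinb2 is highest in the library with the most macrophage markers, Serpini1 is highest in the 3 strips with the most neuron markers, Serpind1 is low in strips despite high mesothelial markers, and Serpina1e is highest in the strip with the most hepatocyte and plasma protein markers.

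The partners of these serpins gave calls in both directions. Of 14 genes for plasminogen activation and clotting proteases, 8 were tested. The numbers called higher and lower were 3 and 1 in M scaffold over strips, 4 and 1 in M plate over strips and 2 and 1 in P plate over strips. Of all 17700 tested genes, 24.5% and 27.6% were called higher and lower in M scaffold over strips, 26.5% and 28.4% in M plate over strips, and 30.5% and 32.7% in P plate over strips. The list's median log2 fold change was 0.22, 0.34 and 0.34 there, against -0.02, -0.01 and -0.03 over all tested genes. Plau, the urokinase plasminogen activator, averaged 317 ± 42.2 CPM in M scaffold, 328 ± 51.9 CPM in M plate, 324 ± 52.1 CPM in P plate and 18.8 ± 13.5 CPM in strips (SD, n = 3 each). Its log2 fold change against strips was 4.08 ± 0.43, 4.13 ± 0.44 and 4.11 ± 0.43 in these 3 cultures (adjusted p = 6.68e-05, 4.52e-05 and 2.16e-05). Between the media Plau was not called (0.02 ± 0.38 for M plate over P plate, adjusted p = 0.979). In M plate over P plate, 1 list gene was higher and 1 lower, while 14.3% and 10.6% of all tested genes were called in these directions. The lower one was F3, tissue factor, the cell surface starter of clotting, with 63.4 ± 14.9 CPM in M plate against 181 ± 125 CPM in P plate and overlapping groups (log2 fold change -1.51 ± 0.44, adjusted p = 0.0303). Plat, the tissue plasminogen activator, was the one list gene higher in M scaffold than in M plate, at 205 ± 5.52 CPM against 107 ± 15.5 CPM (0.94 ± 0.17, adjusted p = 0.0252). Among 12 receptors and cofactors of secreted serpins, all tested, 6 were higher and 1 lower in M scaffold over strips, 8 and 1 in M plate over strips, 7 and 3 in P plate over strips, and 3 and 1 in M plate over P plate. In either direction, 52.1%, 54.9%, 63.1% and 24.9% of all tested genes were called in these comparisons. Plaur, the urokinase receptor, was higher in P plate than in strips, with 72.4 ± 7.82 CPM in P plate and 6.78 ± 1.52 CPM in strips (log2 fold change 3.42 ± 0.18, adjusted p = 5.15e-07). F2rl1, a receptor that proteases switch on by cutting it, averaged 21.7 ± 3.94 CPM in M plate against 1.77 ± 0.921 CPM in P plate (3.62 ± 0.45, adjusted p = 0.000294). Plxdc2, a receptor of Serpinf1, was higher in each culture than in strips, with log2 fold changes of 3.66, 3.89 and 3.61 in M scaffold, M plate and P plate.

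Serping1 (C1 inhibitor, ENSMUSG00000023224, chromosome 2, 84765387 to 84775444, minus strand) had the highest level of the serpins described in both M medium groups. Its levels were 2119, 3700 and 3151 CPM in M scaffold, 1979, 2107 and 1848 CPM in M plate, 702.4, 844.1 and 503.7 in P plate and 304.9, 269.3 and 293.6 CPM in strips. The 4 groups stood in this order with no overlap between neighbours. M plate was higher than P plate by a log2 fold change of 1.53 ± 0.24 (edgeR, adjusted p = 0.00122), a mean of 1978 ± 129 CPM against 683.4 ± 171 CPM (SD, n = 3 each). M scaffold over M plate was 0.60 ± 0.23, which did not pass (adjusted p = 0.176, and 0.14 with the replicate number as a block within these groups). Against strips the mean was 10.3-fold higher in M scaffold (3.37 ± 0.26, adjusted p = 1.34e-05), 6.84-fold higher in M plate (2.77 ± 0.25, 2e-05) and 2.36-fold higher in P plate (1.24 ± 0.24, 0.00104). These calls held without each single library.

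Of 7 genes of the C1 complex and the lectin pathway, 6 were tested, and 5 of them were higher than strips in each culture. The sixth, Masp1, was lower than strips in M plate and P plate and did not pass in M scaffold. Of all tested genes, 24.5%, 26.5% and 30.5% were called higher than strips in M scaffold, M plate and P plate. Macrophage markers (10 genes, all read in each group) summed to 1800 to 4050 CPM in M scaffold, 4050 to 4730 CPM in M plate, 2250 to 21400 CPM in P plate and 168 to 232 CPM in strips, and C1qa and C1qb are in both lists. The part of macrophages in the result was not tested. C1ra, a protease that Serping1 inhibits, was the single gene of the list called between the media, at 443 ± 84.4 CPM in M plate against 152 ± 91 CPM in P plate (log2 fold change 1.54 ± 0.42, adjusted p = 0.0236). C1qa and C1qc, subunits of the recognition part of C1 that macrophages make, rose 4.72 and 4.81 over strips in M plate (log2 scale). Their P plate means of 687 ± 737 and 647 ± 681 CPM had spreads as wide as the means, and P plate replicate 1 stood apart in its macrophage markers.

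**Figure D4:**
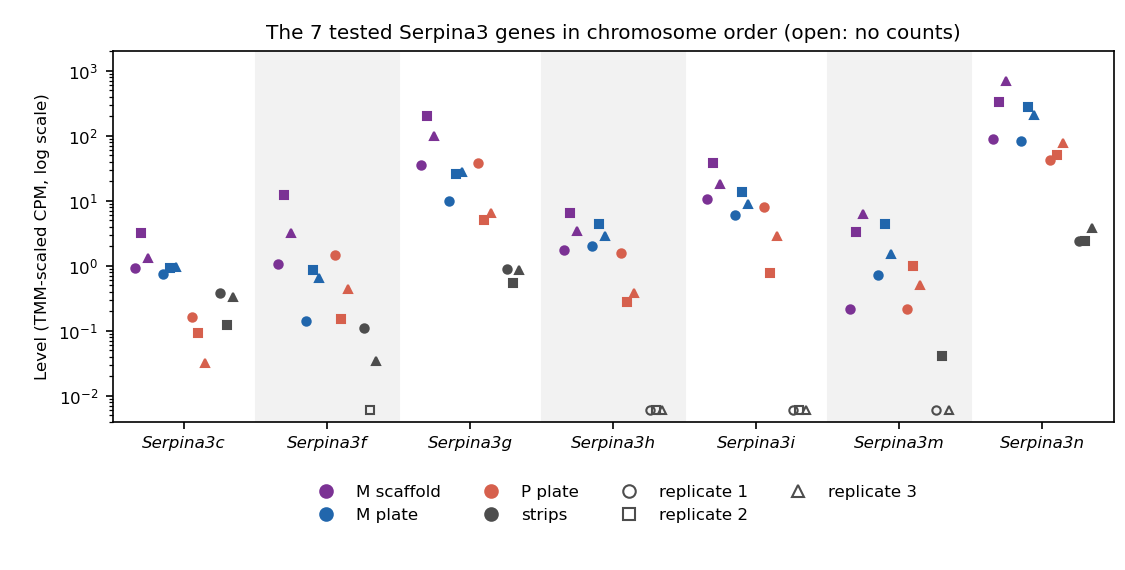
Points give the 7 tested Serpina3 genes in chromosome order (TMM-scaled CPM, log axis), with colours for groups, shapes for replicate numbers and open symbols at the bottom for no counts. The strips are the lowest group for each gene but Serpina3c, and in M scaffold replicate 1 (circle) is the lowest library for each gene.

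The Serpina3 cluster on chromosome 12 holds 11 genes in these data, mouse relatives of the single human antichymotrypsin gene, which is an acute-phase inhibitor of neutrophil and mast cell proteases. Of them, 7 were read and tested. The summed level of these 7 was 141.2, 591.8 and 842.8 CPM in M scaffold, 104.2, 326.5 and 249.2 CPM in M plate, 92.29, 58.19 and 88.67 in P plate and 3.802, 3.166 and 5.087 CPM in strips. All 9 cultures were well above the strips, and replicate 1 was the lowest in both M medium groups. The 3 upstream windows printed above belong to the members with the highest levels.

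Serpina3n (ENSMUSG00000021091, 104406729 to 104414329, plus strand), known in mice as an inhibitor of granzyme B and leukocyte elastase, was the most abundant of the cluster. It had 90.69, 327.7 and 710.1 CPM in M scaffold, 84.61, 275.9 and 206.3 CPM in M plate, 42.81, 50.91 and 77.74 in P plate, and 2.407, 2.458 and 3.847 CPM in strips. The M medium groups overlapped, and both lay above P plate in every library. Against strips the log2 fold change was 6.99 ± 0.81 in M scaffold (adjusted p = 0.000106), 6.0 ± 0.78 in M plate (0.000141) and 4.28 ± 0.72 in P plate (0.000471). The M scaffold value was 6.15 without M scaffold replicate 3. M plate over P plate was 1.73 ± 0.64 and missed the threshold (adjusted p = 0.0724).

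Serpina3g (ENSMUSG00000041481, 104236245 to 104241939, plus strand), a cysteine protease inhibitor known from activated mouse T cells and macrophages, had 35.87, 200.8 and 100.1 CPM in M scaffold, 9.853, 26.02 and 27.98 CPM in M plate, 37.94, 5.008 and 6.629 in P plate and 0.9028, 0.5415 and 0.8691 CPM in strips. Each M scaffold library was above each M plate library, while P plate replicate 1 was slightly above the lowest M scaffold library. Over M plate, M scaffold had a log2 fold change of 2.40 ± 0.81 that did not pass in the fit of all 12 libraries (adjusted p = 0.128). With the replicate number as a block within these groups, it was 2.23 and was called (adjusted p = 0.0218). Against strips the log2 fold change was 7.14 ± 1.04 in M scaffold, 4.74 ± 0.95 in M plate and 4.38 ± 0.94 in P plate (adjusted p = 0.000367, 0.00189 and 0.00219). Without P plate replicate 1 the P plate value was 2.82 (adjusted p = 0.00578), and without M scaffold replicate 2 the M scaffold value was 6.41 (adjusted p = 0.00116).

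Serpina3i (ENSMUSG00000079014, 104263122 to 104269372, plus strand) had no count in strips. It had 10.69, 38.07 and 18.42 CPM in M scaffold, 6.129, 13.87 and 8.818 CPM in M plate and 8.125, 0.7682 and 2.932 CPM in P plate. With 3 counts over the strips as the floor, it was at least 1010-fold higher in M scaffold, at least 469-fold higher in M plate and at least 202-fold higher in P plate (adjusted p = 0.000356, 0.000486 and 0.000768). Strips replicate 3 carries most of the depth behind these bounds, which without it were 416-fold, 193-fold and 83.2-fold, and without P plate replicate 1 the P plate bound was 89.6-fold. The P plate values lay on both sides of the lowest M plate value, and M plate over P plate was not called (1.28 ± 0.77, adjusted p = 0.263). Without P plate replicate 1 it was called (2.38, adjusted p = 0.0421). M scaffold over M plate was 1.22 ± 0.76 in the fit of all 12 libraries (adjusted p = 0.399), with overlapping groups. With the replicate number as a block within these groups it was 1.12 and was called (adjusted p = 0.0257).

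The smaller members of the cluster were also higher in the cultures than in strips, with 1 exception. Among them, Serpina3h is annotated as a transcribed pseudogene and not as a protein-coding gene. Serpina3h (1.751 to 6.552 CPM in M scaffold, 2.005 to 4.413 CPM in M plate and 0.2765 to 1.559 CPM in P plate) had no count in strips and was at least 179-fold, 153-fold and 38.0-fold higher in M scaffold, M plate and P plate (adjusted p = 0.000473, 0.000447 and 0.00168). Without strips replicate 3 these bounds were 74.0-fold, 62.9-fold and 15.7-fold, and without P plate replicate 1 the P plate bound was 16.1-fold. Serpina3m had 1 count in all strips together, and its pooled ratio to them was 682 in M scaffold (95% counting interval 122 to 27000), 318 in M plate (56.7 to 12600) and 81.9 in P plate (14.1 to 3290). These ratios rest on that count: without strips replicate 2, which held it, they become bounds of at least 190-fold, 88.7-fold and 22.8-fold, and without strips replicate 3 they were 281, 131 and 33.8. The M scaffold ratio was 256 without M scaffold replicate 3, the M plate ratio was 182 without M plate replicate 2, and the P plate ratio was 51.9 without P plate replicate 2. Its call in P plate was lost without strips replicate 1 (adjusted p = 0.0515) or strips replicate 3 (0.0768). Serpina3f reached 12.17 CPM in M scaffold replicate 2, with 1.075 and 3.155 CPM in the other M scaffold libraries, 0.1432 to 0.8624 CPM in M plate, 0.1536 to 1.477 CPM in P plate and 0 to 0.1094 CPM in strips. It was called higher than strips in M scaffold (log2 fold change 6.72 ± 1.33, adjusted p = 0.00197), M plate (3.44 ± 1.32, 0.0475) and P plate (3.77 ± 1.33, 0.0289). Without M scaffold replicate 2 the M scaffold value was 5.37 (adjusted p = 0.00534), and without strips replicate 1 the 3 values were 7.57, 4.27 and 4.61. The P plate call was lost without P plate replicate 1 (2.51, adjusted p = 0.15), strips replicate 2 or strips replicate 3, and the M plate call was lost without any 1 of 5 libraries (adjusted p up to 0.154). For M scaffold over M plate, Serpina3f had 3.28 ± 1.02 in the fit of all 12 libraries (adjusted p = 0.102). With the replicate number as a block within these groups it had 3.03 and was called (adjusted p = 0.0237). Serpina3c was higher than strips in M scaffold (2.59 ± 0.55, adjusted p = 0.00294) and M plate (1.56 ± 0.55, adjusted p = 0.0319), though in M plate the call was lost without any 1 of the 6 libraries (adjusted p = 0.0513 to 0.0979). Its M scaffold value was 1.92 without M scaffold replicate 2 (adjusted p = 0.0103). It was the exception in P plate, which had 0.03187 to 0.1641 CPM and strips had 0.125 to 0.383 CPM (log2 fold change -1.56 ± 0.67, adjusted p = 0.0635). Serpina3c was also higher in M plate than in P plate, with 0.7447 to 0.9588 CPM in M plate (3.12 ± 0.64, adjusted p = 0.00576, and 3.75 without P plate replicate 1). Near-identical stretches limit how firmly reads can be placed: of the 50-base words of each transcript set, 15.5% of Serpina3g, 15.9% of Serpina3i, 21.9% of Serpina3h, 19.1% of Serpina3m and 6.90% of Serpina3n are found in another gene. The entry of the table for reads that aligned to several places held 38.66% to 46.69% of all entries per library.

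The 15 listed proteases of leukocyte granules and of the cell interior, among which are known targets of Serpina3 and clade b serpins, were called mainly against strips, as were genes in general (52.1% to 63.1% of all tested genes against strips, 24.9% in M plate over P plate and 3.18% in M scaffold over M plate). Of the 10 tested, 5 were higher than strips in M scaffold, 4 in M plate and 5 in P plate, and in each of these comparisons the edgeR test called 0 lower, with 2 lower at an unadjusted p under 0.05 in P plate and 0 in the others. DESeq2 called 2 lower in P plate and 0 in the others, and limma-voom called 0 in each. Of all tested genes, DESeq2 called 34.5% and limma-voom 33.6% lower in P plate over strips. No share over all genes is given at an unadjusted p. The median log2 fold change of the tested genes was 2.23, 1.33 and 0.67. Ctss (cathepsin S), a lysosomal cysteine protease of antigen-presenting cells, averaged 224 ± 112, 187 ± 11 and 396 ± 358 CPM in M scaffold, M plate and P plate and 14.5 ± 10.0 CPM in strips. The macrophage markers given above were likewise higher in every culture (1800 CPM or more) than in strips (168 to 232 CPM). Between the M medium groups, Ctss had the higher mean in M scaffold, whereas the markers did not. They summed to 1800 to 4050 CPM in M scaffold and 4050 to 4730 CPM in M plate. The part of macrophages in the Ctss result was not tested. Ctsk (cathepsin K), a collagen-cutting cysteine protease, was higher in M scaffold than in M plate, with 153 ± 58.5 CPM against 33.7 ± 8.05 CPM (log2 fold change 2.18 ± 0.35, adjusted p = 0.0171). Neutrophil and mast cell markers (10 genes) summed to 5.03 to 13.5 CPM in M scaffold, 5.36 to 31.8 CPM in M plate, 1.91 to 4.72 CPM in P plate and 3.42 to 7.82 CPM in strips. The list's genes at 0 were S100a9, Ly6g and Ngp in M scaffold and S100a9 alone in M plate. In P plate they were S100a9, Ly6g, Ngp, Mcpt4 and Cma1, and in strips Ly6g alone.

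Serpinh1 (HSP47, ENSMUSG00000070436, chromosome 7, 99345376 to 99353239, minus strand), the chaperone that binds procollagen, was high everywhere. It stood at 1284, 1452 and 1978 CPM in M scaffold, 1413, 1172 and 1572 CPM in M plate, 1732, 1698 and 2552 in P plate and 1105, 954.3 and 1051 CPM in strips. Every culture was above every strip. P plate was called higher than strips (log2 fold change 0.94 ± 0.22, adjusted p = 0.00384), and so was M scaffold by a smaller value (0.60 ± 0.22, adjusted p = 0.0426), which was lost without M scaffold replicate 3 (0.41, adjusted p = 0.152), M scaffold replicate 2 or any 1 of the strips. M plate over strips was 0.42 ± 0.22 (adjusted p = 0.133), and M plate over P plate was -0.53 ± 0.22 (adjusted p = 0.11). Of 18 genes for folding and modifying collagen, all tested, 11 were higher and 1 lower in M scaffold over strips, 12 and 1 in M plate over strips, and 17 and 1 in P plate over strips. Over all tested genes 24.5% and 27.6%, 26.5% and 28.4%, and 30.5% and 32.7% were called higher and lower in these comparisons. The list's median log2 fold change was 0.90, 0.78 and 1.04. Between the media, 1 was higher and 6 were lower in M plate, against 14.3% and 10.6% of all tested genes. P4hb, a subunit of prolyl 4-hydroxylase, had 843 ± 41.9 CPM in M plate against 1590 ± 292 CPM in P plate (-0.91 ± 0.22, adjusted p = 0.0135). P4ha1, its catalytic subunit, had 240 ± 22.6 CPM in M plate against 504 ± 63.5 CPM in P plate (-1.07 ± 0.32, adjusted p = 0.0323). Between M scaffold and M plate, P4ha3 was the gene of the list called lower, at 10.1 ± 2.15 CPM in M scaffold against 21.3 ± 1.47 CPM in M plate (-1.07 ± 0.18, adjusted p = 0.0205).

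Serpinf1 (PEDF) had 103.3, 208.4 and 347.1 CPM in M scaffold, 148.6, 120.9 and 173.4 CPM in M plate, 266.2, 87.51 and 157.3 in P plate and 43.39, 28.66 and 47.01 CPM in strips. The 3 cultures overlapped one another, and each lay above the strips. The log2 fold change over strips was 2.47 ± 0.48 in M scaffold, 1.89 ± 0.47 in M plate and 2.10 ± 0.47 in P plate (edgeR, adjusted p = 0.00171, 0.00587 and 0.00275). Neither the medium (-0.21 ± 0.45, adjusted p = 0.776) nor the scaffold comparison (0.57 ± 0.45, adjusted p = 0.503) was called.

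**Figure D5:**
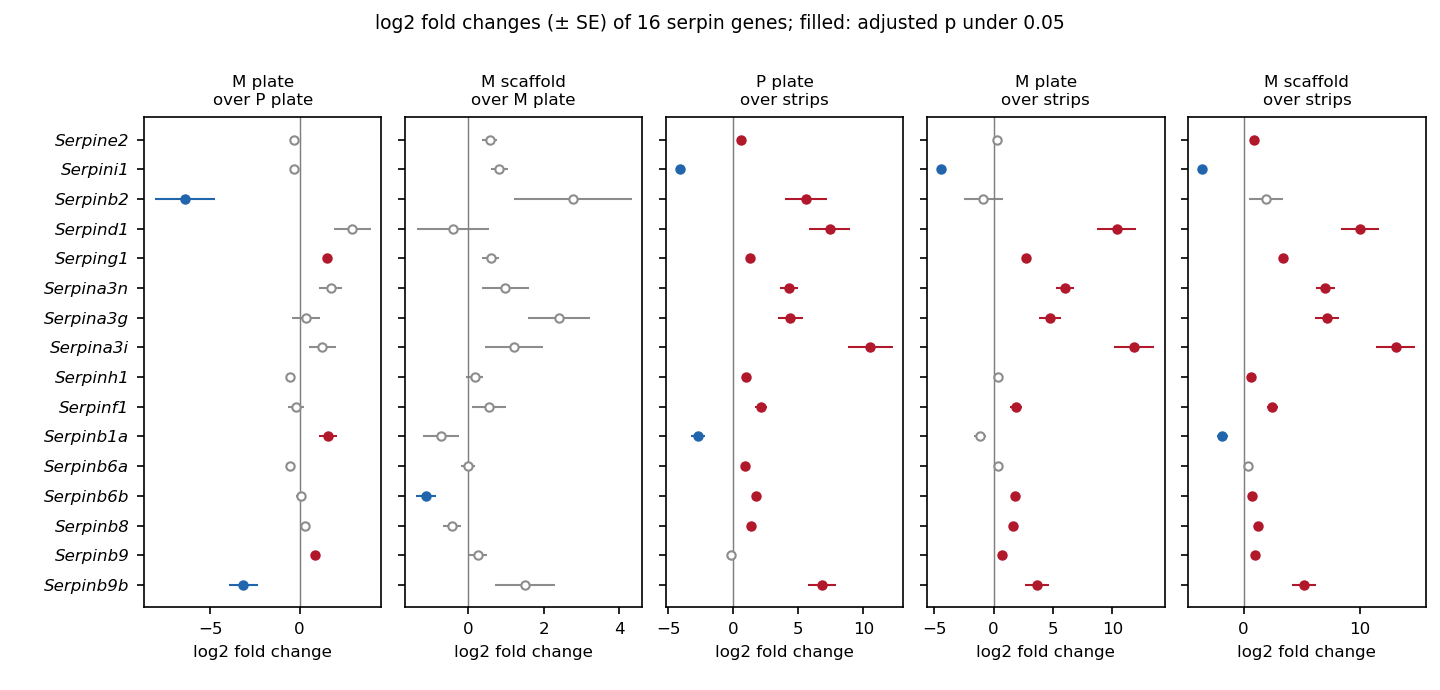
Points give the fitted log2 fold change with its standard error for 16 serpins in 5 comparisons, with filled points where the adjusted p was under 0.05 and a separate horizontal scale in each panel. The fitted value of Serpina3i against strips depends on the handling of zero counts there. Filled points are few in the scaffold panel and most of the points against strips, with Serpini1 to the left of 0 in all 3 of those.

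The intracellular clade b serpins, which guard cells against their own granule and lysosomal proteases, differed from one another. Serpinb1a (ENSMUSG00000044734, chromosome 13, 32842092 to 32851185, minus strand), an inhibitor of neutrophil elastase and cathepsin G, ran opposite to most of the family. It had 16.65, 17.17 and 18.51 CPM in M scaffold, 31.96, 29.35 and 23.86 CPM in M plate, 2.271, 15.82 and 10.1 in P plate and 71.78, 65.52 and 48.73 CPM in strips. The strips were above every culture, and M plate was above M scaffold and P plate in every library. M plate over P plate was 1.60 ± 0.49 on the log2 scale (adjusted p = 0.0386), which was lost without any 1 of the M plate libraries or without P plate replicate 3 (adjusted p up to 0.106). Compared with strips it was lower in M scaffold (-1.83 ± 0.49, adjusted p = 0.0104) and P plate (-2.72 ± 0.51, adjusted p = 0.000948), and M plate did not pass (-1.13 ± 0.48, adjusted p = 0.0699). Without P plate replicate 2, M plate over P plate was 2.20 and P plate over strips was -3.33. M scaffold over M plate was -0.70 ± 0.48 in the fit of all 12 libraries (adjusted p = 0.44). With the replicate number as a block within these groups it was -0.68 and was called (adjusted p = 0.0491).

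Serpinb6b (ENSMUSG00000042842, chromosome 13, 32965209 to 32979067, plus strand), a relative of human SERPINB6, was the 1 serpin called between M scaffold and M plate in the fit of all 12 libraries. It had 57.12, 79.27 and 74.44 CPM in M scaffold, 163.0, 175.5 and 115.3 CPM in M plate, 92.88, 163.8 and 173.9 in P plate and 53.57, 40.49 and 35.55 CPM in strips. M scaffold lay below M plate in every library, at a mean of 70.28 ± 11.6 CPM against 151.3 ± 31.8 CPM (SD, n = 3 each). The log2 fold change was -1.11 ± 0.26 with an adjusted p of 0.0489. The call was at the threshold: leaving out any 1 of the 6 libraries gave adjusted p values of 0.0797 to 0.19. With the replicate block it was 0.0738 in all 12 libraries and 0.0349 within these groups. The level of Serpinb6b was higher than in strips in M scaffold (0.70 ± 0.26, adjusted p = 0.0419, lost without M scaffold replicate 2 or 3 or strips replicate 2 or 3), M plate (1.81 ± 0.27, 0.000291) and P plate (1.73 ± 0.26, 0.000248).

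Its relative Serpinb6a had 217.0, 212.8 and 257.7 CPM in M scaffold, 234.3, 219.1 and 233.8 CPM in M plate, 432.8, 267.3 and 287.0 in P plate and 196.6, 187.2 and 146.2 CPM in strips. P plate was higher than strips (log2 fold change 0.90 ± 0.19, adjusted p = 0.00176), while M scaffold (0.38 ± 0.18, adjusted p = 0.112) and M plate (0.37 ± 0.18, adjusted p = 0.109) did not pass. M plate over P plate was -0.52 ± 0.19 (adjusted p = 0.0634, and 0.0295 without P plate replicate 2). M scaffold over M plate was 0.00 ± 0.18, with means of 229.2 and 229.1 CPM. Of the 50-base words of Serpinb6a, 25.1% are found in other genes, with Nqo2 holding the most (12.5%), and which strand setting was used for counting is not given.

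Serpinb9, the mouse inhibitor of granzyme B, had 80.25, 158.3 and 115.9 CPM in M scaffold, 96.23, 112.3 and 86.2 CPM in M plate, 40.08, 60.99 and 61.07 in P plate and 69.02, 55.94 and 57.3 CPM in strips. M medium libraries were above all P plate and strips libraries. M plate over P plate was 0.86 ± 0.24 (adjusted p = 0.0255), and the call was lost without P plate replicate 1 (0.69, adjusted p = 0.0558), M plate replicate 1 (0.0673) or M plate replicate 2 (0.0932). M scaffold and M plate were higher than strips (0.96 ± 0.24 and 0.69 ± 0.24, adjusted p = 0.00729 and 0.0309), although the M plate call was lost without M plate replicate 1 or 2 or strips replicate 2 or 3 (adjusted p up to 0.11). P plate over strips was -0.17 ± 0.24 (adjusted p = 0.556).

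Its relative Serpinb9b ran the other way between the media. It had 2.18, 0.7763 and 11.8 CPM in M scaffold, 1.26, 1.598 and 2.373 CPM in M plate, 13.82, 9.679 and 23.04 in P plate and 0.2189, 0.1666 and 0.06953 CPM in strips. M plate was lower than P plate without overlap (log2 fold change -3.14 ± 0.83, adjusted p = 0.0206), a call lost without M plate replicate 1 (0.082), M plate replicate 2 (0.0744) or P plate replicate 3 (0.0615). Every culture was above the strips, by 5.17 ± 1.02 in M scaffold, 3.66 ± 1.00 in M plate and 6.80 ± 1.06 in P plate (adjusted p = 0.00193, 0.0102 and 0.000284). Without M scaffold replicate 3 the M scaffold value was 3.42 (adjusted p = 0.00253), and without strips replicate 3 the M plate value was 3.12 (adjusted p = 0.052). Serpinb8, which inhibits the proprotein convertase furin, had 12.25, 12.33 and 18.73 CPM in M scaffold, 19.07, 20.57 and 18.22 CPM in M plate, 17.97, 18.44 and 9.817 in P plate and 6.292, 5.998 and 5.933 CPM in strips. The cultures overlapped and all were above the strips, by 1.25, 1.67 and 1.34 on the log2 scale in M scaffold, M plate and P plate (adjusted p = 0.00176, 0.000294 and 0.00075).

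Serpinb11 was read in M medium alone at these depths. It had 11.09, 8.073 and 1.379 CPM in M scaffold, 0.9738, 2.004 and 1.399 CPM in M plate, and no count in P plate or strips. Against the floor it was at least 49.0-fold higher in M plate than in P plate (adjusted p = 0.00946), and at least 216-fold and 71.7-fold higher than strips in M scaffold and M plate (adjusted p = 0.00108 and 0.00283). Without strips replicate 3 the bounds against strips were 88.9-fold and 29.6-fold, and the M scaffold bound was 141-fold without M scaffold replicate 1 and 469-fold without M scaffold replicate 3. Without P plate replicate 1 the bound against P plate was 31.2-fold. Serpinb1b had 0.6665 to 1.677 CPM over all 12 libraries and was not called in any of the 5 comparisons. Serpinb1c had 0.2029 to 0.7387 CPM in the cultures and 0.02736 to 0.04166 CPM in strips and was called higher in each culture, by 3.40, 3.67 and 3.68 on the log2 scale in M scaffold, M plate and P plate. Serpina9 had 0.05472 to 0.9218 CPM in the cultures and no count in strips, and was at least 5.57-fold, 13.1-fold and 22.9-fold higher in M scaffold, M plate and P plate. Its M scaffold call was lost without strips replicate 3 (adjusted p = 0.0794), when the bounds were 2.30-fold, 5.41-fold and 9.44-fold, and the P plate bound was 12.3-fold without P plate replicate 2.

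A small set of serpins was higher in native strips. Serpini1 (neuroserpin, ENSMUSG00000027834, chromosome 3, 75557547 to 75643495, plus strand), the neuronal inhibitor of tissue plasminogen activator, had 5.989, 6.769 and 5.4 CPM in M scaffold, 4.869, 2.739 and 2.656 CPM in M plate, 4.076, 4.455 and 4.143 in P plate and 80.79, 57.69 and 78.33 CPM in strips. All cultures were far below the strips, with log2 fold changes of -3.58 ± 0.24 in M scaffold, -4.41 ± 0.26 in M plate and -4.10 ± 0.25 in P plate (edgeR, adjusted p = 9.99e-06, 3.91e-06 and 9.46e-07). M scaffold lay above M plate without overlap, at 0.83 ± 0.23 and an adjusted p of 0.0747 (0.0283 without M plate replicate 1). Enteric neuron markers (8 genes) summed to 368, 299 and 474 CPM in M scaffold, 209, 101 and 156 CPM in M plate, 34.4, 24.9 and 59.8 in P plate, where Chat was at 0, and 1020, 1010 and 1350 CPM in strips. The strips were highest in both, but P plate, with the fewest neuron markers, was not below M plate in Serpini1 (-0.31 ± 0.23 for M plate over P plate, adjusted p = 0.356, and 0.0334 without M plate replicate 1); the part of neurons in the result was not tested.

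Serpinb5 (maspin), an epithelial serpin that does not inhibit proteases by the usual trap, had 0 to 0.009014 CPM in M scaffold, 0.01572 to 0.05728 CPM in M plate and no count in P plate, against 4.021, 5.499 and 4.682 CPM in strips. P plate was at least 156-fold lower, M plate was lower by a log2 fold change of -7.19 ± 0.46 (adjusted p = 1.32e-05), and M scaffold, with 1 count in all, was lower by a pooled ratio (strips over M scaffold) of 817 (95% counting interval 146 to 32300). Without M scaffold replicate 3, which held that count, the M scaffold value becomes a bound of at least 100-fold lower, and the P plate bound was 99.1-fold without P plate replicate 1. Serpinb5 passed the filter on low counts only through the strips. Intestinal epithelial markers (8 genes) summed to 3.54 to 5.12 CPM in M scaffold, 5.56 to 8.02 CPM in M plate, 3.03 to 4.06 CPM in P plate and 86.8, 379 and 64.7 CPM in strips. The strip with the highest epithelial sum also had the highest Serpinb5, but strips replicates 1 and 3 stood in opposite order. Serpinb5 also differed far less among the strips than the epithelial sum did. The part of epithelium was not tested.

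Serpina1e, an alpha-1-antitrypsin of mouse liver, had at most 1 count in each culture group, against 0.5471, 27.62 and 1.622 CPM in strips. Strips replicate 2 held most of it. M plate was at least 258-fold lower than strips. M scaffold and P plate, each with 1 count, were lower by pooled ratios (strips over culture) of 985 (176 to 38900) and 563 (101 to 22300). Without strips replicate 2 the M plate bound was 59.9-fold, and the ratios were 229 in M scaffold and 131 in P plate. Without strips replicate 3 they were 519-fold, 1980 and 1130. Without the culture library that held the count, M scaffold replicate 2 or P plate replicate 2, the ratios become bounds of at least 268-fold and 127-fold. The gene passed the filter on low counts only through the strips, so it had to be lower in the cultures. Hepatocyte and plasma protein markers (7 genes, among them Serpina1c, which was not read) summed to 0.155 to 1.09 CPM in M scaffold, 0.258 to 0.613 CPM in M plate, 0.0615 to 0.351 CPM in P plate and 104, 1310 and 161 CPM in strips, so the same strip was highest in both. Serpina1a, read but too low to be tested, had no count in any culture, against 0.1094, 4.874 and 0.4056 CPM in strips. Sequence shared with other Serpina1 genes covers 57.6% of the 50-base words of Serpina1a and 34.6% of those of Serpina1e. Reads therefore cannot be placed firmly among these copies. Strips replicate 2 was also the strip with the most intestinal epithelial markers, at 379 CPM against 86.8 and 64.7 CPM in replicates 1 and 3. The part of liver or epithelial RNA was not tested.

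Counted over the tested serpins, the strips comparisons gave the most calls. In M scaffold over strips 19 of 26 were higher and 4 lower, while 24.5% and 27.6% of all 17700 tested genes were called in these directions (52.1% in either). In M plate over strips 17 were higher and 3 lower, against 26.5% and 28.4% of all genes (54.9% in either). In P plate over strips 18 were higher and 4 lower, against 30.5% and 32.7% (63.1% in either). The median log2 fold change of the 26 was 2.53, 1.85 and 1.54 in M scaffold, M plate and P plate over strips, and 2.47 in M scaffold with genes at 0 in strips set at their bound. Over all genes it was -0.02, -0.01 and -0.03. These comparisons share the strips as their reference, so they are not independent of one another. Called lower in all 3 were Serpina1e, Serpinb5 and Serpini1, and Serpinb1a was called lower in M scaffold and P plate. Of the 16 serpins with 10 CPM or more in a group, 12 were higher and 2 lower in M scaffold over strips, 10 and 1 in M plate over strips, and 13 and 2 in P plate over strips.

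Between M plate and P plate 7 of 26 serpins (26.9%) were called, 5 higher (Serpinb11, Serpina3c, Serpinb1a, Serping1 and Serpinb9) and 2 lower (Serpinb2 and Serpinb9b). Over all tested genes 24.9% were called, 14.3% higher and 10.6% lower, so the share of serpins called was near that of all genes. Without P plate replicate 1, 9 serpins were called, of which 5 were called in the same direction with it, and 28.6% of all genes tested without it were called. In M scaffold over M plate 1 of 26 was called, the lower Serpinb6b, while 3.18% of all tested genes were called (1.53% higher and 1.64% lower). The edgeR test called 0 serpins higher there, with 6 higher at an unadjusted p under 0.05, 4 called by DESeq2 (which called 6.47% of all tested genes higher) and 0 by limma-voom (2.59% of all tested genes). The share of all genes at that unadjusted threshold is not given, so the 6 cannot be set against it. With the replicate number as a block within these groups, 6 were called: Serpina3g, Serpina3i, Serpinb2 and Serpina3f higher (log2 fold changes 2.23, 1.12, 2.86 and 3.03, adjusted p = 0.0218, 0.0257, 0.023 and 0.0237), and Serpinb6b and Serpinb1a lower (-1.09 and -0.68, adjusted p = 0.0349 and 0.0491). That fit called 10.5% of its 16354 tested genes, 4.81% higher and 5.69% lower, and it tested 23 of the serpins. With the block in all 12 libraries 0 were called, while 2.21% of all tested genes were.

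Read but too low to be tested were Serpina12, Serpina1a, Serpina1b, Serpinb10, Serpinb12, Serpinb3a, Serpinb6c and Serpinc1. Serpinc1 (antithrombin), the main thrombin inhibitor of plasma, was among them, with 0.02536 to 0.1915 CPM over the 12 libraries. Among the 28 not read were Serpinf2, the plasma inhibitor of plasmin, Serpina5, the protein C inhibitor, and Serpina6 and Serpina7, the plasma carriers of glucocorticoids and thyroid hormone. None of these exceeded 8 counts in a library, which covers counting error only.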

How the data were processed

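The authors deposited unnormalized counts for Ensembl genes in 1 table, a column for each of the 12 samples, and no other values were used. Per the labels' protocols, the TruSeq RNA Library Prep Kit v2 was used on total RNA, and the submitters' processing notes name STAR 2.6.0 and the builds GRCm38 and mm10. What was not given in the sources used here includes the counting program, its strand setting and annotation, and how the 2 technical replicates named in the design text were joined. The 5 summary entries, which took 38.66% to 46.69% (reads aligned to several places), 2.571% to 4.421% (no feature) and 1.829% to 2.235% (ambiguous) of a library, entered neither library sizes nor tests. Symbols and GRCm38 coordinates came from GENCODE M21 for 52403 of 52550 genes.

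Genes were filtered with filterByExpr and scaled by TMM, and all 12 libraries were fitted in edgeR 4.0.16 (R 4.3.3) with the group as the only term (8 residual degrees of freedom). Quasi-likelihood F tests of 5 comparisons were two-sided, with Benjamini-Hochberg adjustment over 17700 genes, and a gene was called at an adjusted p under 0.05. Levels are TMM-scaled CPM computed from the deposited counts. Floors of 3 counts and counting intervals of ratios (95%) are over the pooled group and cover counting error only. Alternatives were DESeq2 1.42.0, limma-voom (limma 3.58.1), RLE scaling, no filter, only the 2 groups compared, the replicate number as a block and leaving out each library. Replicates of a group differed far beyond sampling noise (chi-square per gene of 38.4 to 400).

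The deviations of libraries with the same number from their group means correlated in M scaffold and M plate (r = 0.355, 0.283 and 0.349 over genes for numbers 1, 2 and 3, all above 0.1), so the numbers were taken as paired there. The main fit did not use this pairing, so its M scaffold over M plate values are unpaired. The replicate block within these groups is the fit that used it. Serpins averaging at least 10 CPM in a group were given library by library, and partner genes were named by the largest called changes, up to 2 per list and comparison. A further gene that the symbol rule takes in (1 gene) stayed in the fit and is not reported here. The members, the partner and marker lists and the motifs were chosen with earlier results of these data known. Sharing of 50-base words was computed over GENCODE M21 transcripts, and upstream sequences came from RefSeq on GRCm38.p6 (Python 3.11.15, Biopython 1.88, pandas 2.3.3).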

Additional observations from a re-analysis of the deposited data

How the results depend on the processing

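Serpin calls against strips kept within 1.5 times their number under every alternative run: 20 to 23 without each library in M scaffold, 16 to 19 in M plate and 20 to 22 in P plate, against 23, 20 and 22 with all libraries. With all libraries, 52.1%, 54.9% and 63.1% of all tested genes were called in these comparisons. In M plate over P plate, 7 serpins were called, against 3 with a replicate block within these groups, 11 by DESeq2, 8 by limma-voom (7.96%, 31.3% and 24.5% of all genes tested in these fits) and 3 to 9 without each library (3 without M plate replicate 2 and 4 without M plate replicate 1). Of all tested genes, 24.9% were called there in the main fit and 28.6% without P plate replicate 1. No share is given without the other libraries. In M scaffold over M plate, 1 was called, against 5 by DESeq2, 3 when only these groups were fitted, 0 with the replicate block in all 12 libraries, 6 with it within these groups and 0 to 1 without each library. Of all genes tested there, 3.18% were called in the main fit and 11.4% by DESeq2. The block in all 12 libraries called 2.21%, and the block within these groups called 10.5%. No share over all genes is given for the other fits of that comparison. The cause of the differences between fits was not tested. No called serpin changed direction under an alternative. Of 130 values (26 serpins in 5 comparisons), 73 were called and 57 of these stayed called without every single library. No such count is given over all genes. Outside M scaffold and M plate the same-numbered libraries shared only a number (r from -0.092 to 0.0853). The block within the groups compared still moved the M plate over P plate count from 7 to 3. It moved no count against strips by over 1.5 times. With exon lengths of the longest transcript, 4, 4, 5 and 4 of the 5 highest serpins per length were the same in M scaffold, M plate, P plate and strips. Depth limits the genes at or under 0.125 CPM, and the cell mixture of each library differed between groups and was not adjusted for.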
